A study of Mus musculus with 11 samples.

Results

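The hippocampus of APP/PS1 mice was compared with that of wild-type mice, with every APP/PS1 library placed in 1 group whatever its exposure. The deposited table held counts for 11 libraries, and the comparison used all of them: 7 APP/PS1 libraries against 4 from wild-type C57BL/6J mice, called WT here. Of the APP/PS1 libraries, 3 came from mice given sham exposure (replicates 1, 3 and 4) and 4 from mice in a rotating magnetic field of 0.4 T (RMF). Both arms were treated on 5 days per week over 12 months. Daily sessions began at 2 months of age and lasted 3 h, then 6 h from 11 months until RNA was taken at 14 months. WT mice were of the same age, and the labels give them no exposure. Genes were included where the deposited FPKM, a count scaled to library size and transcript length, was at least 1 in at least 3 of the 11 libraries, which kept 14428 of 36826 genes.

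APP/PS1 mice express transgenes that include a mutant amyloid precursor protein, and their brains collect plaques of the amyloid-beta peptide that secretases cut from the precursor. In such brains, microglia, the resident immune cells, gather at plaques and take up amyloid through receptors such as TREM2, and nearby astrocytes enlarge and make more filament protein. In widely used APP/PS1 lines the transgenes are driven by the promoter of the prion protein gene Prnp. The labels do not name the line used here.

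Several properties of the libraries bear on all values below. No label states that the libraries are separate animals, and the extraction protocol mentions pooled RNA. P-values therefore measure only how these libraries vary, part of which may be technical. The labels state neither how WT mice were handled nor whether they were littermates, so genotype and handling cannot be told apart. Library totals lay between 68124548 and 70786786 counts. The labels give the cell type as neurons, but defining markers of several cell types were present in all 11 libraries: in CPM, a gene's count scaled to library size by TMM, the neuronal gene Snap25 lay between 1805 and 3238, the oligodendrocyte gene Mbp between 1401 and 4778, the astrocyte gene Aqp4 between 71.8 and 188 and the microglial gene Cx3cr1 between 37.9 and 69.0. WT 3 stood apart. Its score for dentate gyrus markers, the mean log2 deviation of the listed genes from their mean over libraries, was -1.60, while the other WT libraries had 0.03 to 0.44. Its neocortex score was 0.92 against -0.29 to 0.03. In tissue libraries, fewer cells of a type and less RNA per cell cannot be told apart.

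Of the 14428 genes, 222 passed the threshold, an adjusted p of 0.05, which is 1.54% of those tested. Of these, 204 were higher in APP/PS1 (1.41%) and 18 lower (0.125%). Every adjusted p is from edgeR's quasi-likelihood test, with Benjamini-Hochberg adjustment across the 14428 genes. At an unadjusted p under 0.05 there were 1641 genes (11.4%). Across all genes the median log2 difference was -0.00, and 49.4% of genes lay above WT. The 7 APP/PS1 values lay entirely above or entirely below the 4 WT values for 462 genes (3.2%), with 327 above (2.27%) and 135 below (0.936%). Among genes that passed, this held for 195 of the 204 higher and all 18 of the lower. At least 1.5-fold apart were 171 of the higher and 13 of the lower genes. The 95% interval of the median gene reached 0.254 to either side on the log2 scale, against 0.307 for sham alone and 0.284 for RMF alone.

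**Figure D1:**
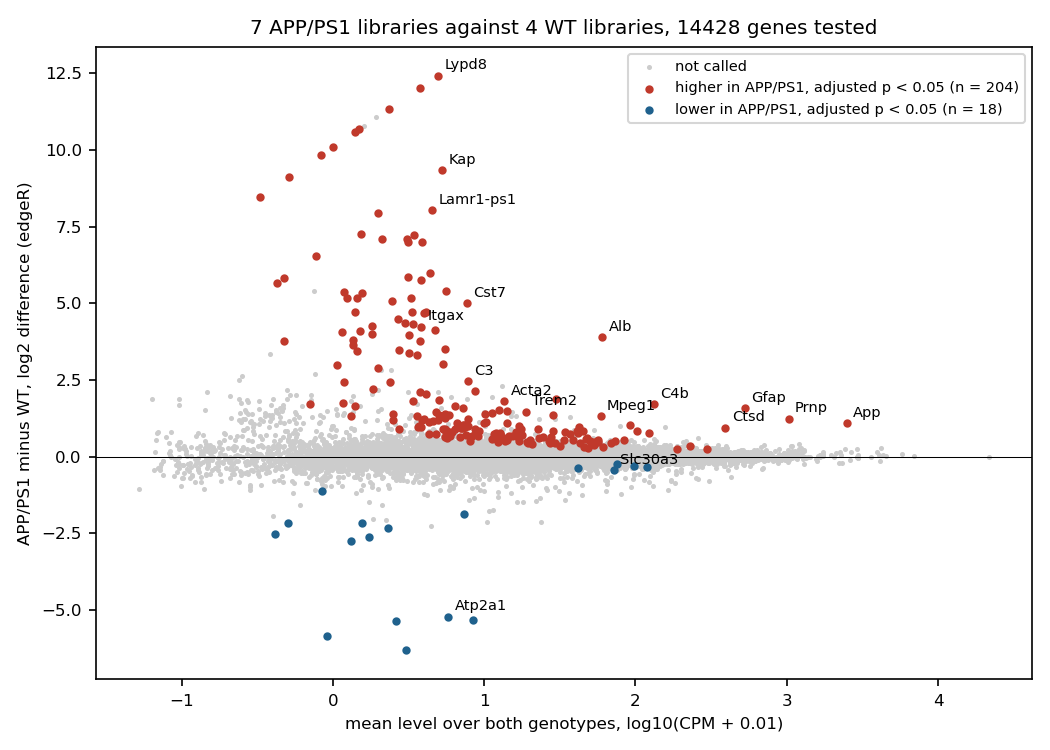
Log2 difference of the 7 APP/PS1 from the 4 WT libraries (vertical axis) against the mean level as log10 of CPM plus 0.01 (horizontal axis), 1 point per tested gene, with genes past an adjusted p of 0.05 coloured by direction. The 204 higher genes outnumber the 18 lower ones, and the far ends on both sides are mostly genes of other organs; for genes with no WT counts the fitted difference is no bound.

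App, which encodes the amyloid precursor protein and is the gene carried by a transgene (ENSMUSG00000022892, chromosome 16, 84746573 to 84970654 as the table gives it), rose in APP/PS1. WT 1 to WT 4 held 1558, 1602, 1633 and 1577 CPM, and the APP/PS1 libraries ranged from 2960.1 CPM in sham 1 over a median of 3388 CPM to 3669 CPM in sham 4. The groups did not overlap, and the lowest APP/PS1 library was far above the highest WT library. The rise was 2.13-fold (95% interval 1.91 to 2.38; log2 difference 1.09, SE 0.073; adjusted p = 7.85e-06), from 1592 ± 32.5 CPM (SD, n = 4) to 3399.6 ± 255 CPM (n = 7). Prnp, the prion protein gene (ENSMUSG00000079037, chromosome 2, 131751848 to 131780349), stood at 646, 614, 532 and 661 CPM in WT 1 to WT 4 and at 1208, 1474 and 1554 CPM as the lowest, median and highest APP/PS1 library. It rose 2.36-fold (2.08 to 2.68, adjusted p = 8.39e-06), again with no overlap. Beside Prnp in the table lies Lamr1-ps1, a processed pseudogene (chromosome 2, 131746006 to 131746879). It was nearly absent from WT, with 9 counts over the 4 libraries, and lay between 6.78 and 12.7 CPM in APP/PS1. Lamr1-ps1 therefore passed the filter only through APP/PS1 libraries, which fixed its direction. Its fitted fold was 264, and 788.5 without WT 4, which held most of the WT counts (adjusted p = 7.85e-06). Counts per gene do not separate reads of transgene sequence from reads of the mouse genes. The part of transgene reads in the rises of App, Prnp and Lamr1-ps1 was not tested.

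None of the listed genes for the App family and the secretases passed (0 of 10, median log2 difference 0.04). Among tested genes within 5 Mb, 0 of 16 near App passed and 1 of 84 near Prnp, which was Lamr1-ps1. Over all genes tested 1.54% passed, so these small counts do not set the neighbours apart from other genes.

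The promoters of Prnp and of 3 of the plaque-associated microglial genes described next are shown because these genes rose and each promoter holds a match to 1 short motif, for which they were picked. Each run is 300 bases of RefSeq sequence (GRCm38.p6, plus strand), 250 before and 50 after the annotated gene start, at chr2:131909678-131909977 (Prnp), chr7:128129300-128129599 (Itgax), chr2:150570165-150570464 (Cst7) and chr17:48346151-48346450 (Trem2). The build of the gene positions in other paragraphs is not given, so these promoter positions cannot be compared with them. Capitals mark the match to TGANTCA, the motif bound by AP-1 factors of the Fos and Jun families, which lies 102, 56, 6 and 9 bases before the start in that order.
Prnp: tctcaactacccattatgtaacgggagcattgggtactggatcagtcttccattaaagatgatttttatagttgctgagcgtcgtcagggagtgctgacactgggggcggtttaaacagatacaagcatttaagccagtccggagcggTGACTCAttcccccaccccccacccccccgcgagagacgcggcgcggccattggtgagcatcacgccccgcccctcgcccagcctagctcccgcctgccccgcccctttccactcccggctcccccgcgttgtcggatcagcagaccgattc
Itgax: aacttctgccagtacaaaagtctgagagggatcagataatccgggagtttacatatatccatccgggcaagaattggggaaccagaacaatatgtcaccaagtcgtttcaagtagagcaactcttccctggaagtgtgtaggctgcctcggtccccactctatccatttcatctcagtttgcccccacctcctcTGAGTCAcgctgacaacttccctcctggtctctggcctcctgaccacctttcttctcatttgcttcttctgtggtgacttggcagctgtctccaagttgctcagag
Cst7: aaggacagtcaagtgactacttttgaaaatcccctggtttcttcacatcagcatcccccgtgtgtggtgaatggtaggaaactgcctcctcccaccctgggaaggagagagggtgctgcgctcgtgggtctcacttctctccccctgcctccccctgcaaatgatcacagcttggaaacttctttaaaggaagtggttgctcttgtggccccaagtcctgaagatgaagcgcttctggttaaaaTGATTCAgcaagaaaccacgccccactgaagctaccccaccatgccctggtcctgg
Trem2: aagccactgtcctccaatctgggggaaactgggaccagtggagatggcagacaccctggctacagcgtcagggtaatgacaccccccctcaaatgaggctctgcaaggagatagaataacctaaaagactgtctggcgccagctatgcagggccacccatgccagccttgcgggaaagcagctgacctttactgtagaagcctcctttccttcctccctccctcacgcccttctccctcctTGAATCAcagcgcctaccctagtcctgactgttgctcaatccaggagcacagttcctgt
The motif reads the same on both strands and was found for 8.97% of 27025 genes with a promoter of this length. These genes include ones that were not tested here, and a gene counts if any of its promoters holds the motif. Among genes that rose it was found for 23 of 157 (14.6%), and for 5 of 12 on the list of plaque-associated microglial genes (41.7%), which were Cd68, Cst7, Gpnmb, Itgax and Trem2. Of 6 other motifs searched on both strands, CLEAR (TCACGTGA), bound by the lysosomal regulator TFEB, was found for 1.12% of the 27025 genes, 2.55% of genes that rose and 1 of the 12, Ctsd. The PU.1 motif GAGGAAGT was found for 3.69% of the 27025 genes and 7.01% of genes that rose, the sterol motif TCACNCCAC for 1.44% and 3.82%, and the STAT motif TTCNNNGAA for 9.55% and 11.5%. The interferon-stimulated response element was in 3.99% and 5.1%, and the CArG box in 1.81% and 2.55%. These 5 motifs were in 0 of the 12. These are matches of letters in a window, and no binding was measured.

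Genes that microglia are known to switch on around plaques rose together. On the plaque-associated list, 14 of 26 tested members rose and 0 fell, with 24 of 26 above WT and a median log2 difference of 0.84. For this list and those below, the share over all genes tested is 1.41% called higher and 0.125% lower. The lists were chosen with earlier results of these data known. A member near 0 in WT could pass the filter only through APP/PS1 libraries, which fixed its direction. Counts of list members are therefore a description only. Itgax, which encodes the integrin CD11c, held 0.305, 0.218, 0.598 and 0.417 CPM in WT 1 to WT 4, and 4.35, 7.11 and 9.39 CPM as the lowest, median and highest APP/PS1 library. Even sham 1, the lowest APP/PS1 library, was above the highest WT library, and the rise was 18.9-fold (11.8 to 30.0, adjusted p = 1.22e-05). Cst7, the gene of the protease inhibitor cystatin F, held 0.174, 0.189, 1.21 and 0.287 CPM in WT and ranged from 8.91 over a median of 13.8 to 19.6 CPM in APP/PS1. WT 3 was the highest WT library and still below all 7 APP/PS1 libraries. Cst7 rose 31.9-fold (14.2 to 71.6, adjusted p = 0.000206), and 68.3-fold without WT 3.

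Receptors and adaptors moved in the same direction. Trem2, the lipid-sensing receptor of microglia, stood at 9.68, 11.7, 8.19 and 10.5 CPM in WT and at 19.5, 30.8 and 32.9 CPM as the lowest, median and highest APP/PS1 library, without overlap. It rose 2.77-fold (2.14 to 3.58, adjusted p = 0.000408), and Tyrobp, the adaptor through which TREM2 signals, rose 2.64-fold (1.99 to 3.51, adjusted p = 0.00128). Clec7a encodes dectin-1, which binds beta-glucans. It lay between 0.374 and 1.28 CPM in WT and between 6.93 and 13.7 CPM in APP/PS1, 11.4-fold higher (adjusted p = 7.8e-05). Ccl6, a chemokine, rose 4.13-fold (adjusted p = 0.000135), and Cd68, a glycoprotein of phagocyte lysosomes, 2.70-fold (adjusted p = 0.000164). None of these receptor, chemokine and lysosome genes had a WT library at or above an APP/PS1 library. Mpeg1, which encodes the macrophage pore protein perforin-2, went from 34.6, 36.0, 30.0 and 34.7 CPM in WT to a median of 82.2 CPM (73.4 to 99.2), a 2.49-fold rise (2.15 to 2.88, adjusted p = 1.22e-05).

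Genes that microglia express in the undisturbed brain rose as well, by smaller folds. On the homeostatic list 6 of 14 tested members rose and 0 fell, all 14 lay above WT, and the median log2 difference was 0.47. Csf1r, the receptor for the growth factors that keep microglia alive, stood at 76.0, 70.4, 58.4 and 66.4 CPM in WT and at 82.6, 101.5 and 110.4 CPM as the lowest, median and highest APP/PS1 library. The groups did not overlap, though sham 4 and the highest WT library lay close together, and the fold was 1.47 (1.28 to 1.69, adjusted p = 0.0058). Cx3cr1, the fractalkine receptor, rose 1.43-fold (adjusted p = 0.00972), Selplg, a selectin ligand, 1.35-fold (adjusted p = 0.0153), the lectin gene Siglech 1.43-fold (adjusted p = 0.0282) and the lysophosphatidylserine receptor gene Gpr34 1.59-fold (adjusted p = 0.0379). The calls of Siglech and Gpr34 ended without any of several single libraries and that of Selplg without WT 1 (adjusted p up to 0.107, 0.0819 and 0.0502 for Gpr34, Siglech and Selplg). Without WT 1, 3 of the 14 passed, and without WT 3 the median was 0.40.

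On the list of genes shared by microglia and other macrophages, 10 of 12 tested members rose, 12 of 12 lay above WT and the median log2 difference was 0.82. Its summed level was 167 to 195.7 CPM in WT and 270.8 to 363.8 CPM in APP/PS1, and that of the homeostatic list 435 to 568 CPM against 669 to 797 CPM. Neither sum overlapped between genotypes. Among its members, Laptm5, a lysosomal membrane protein of blood-lineage cells, rose 1.94-fold (adjusted p = 0.000179), Ly86, a partner of a Toll-like receptor homologue, 1.88-fold (adjusted p = 0.00557), Cd53, a tetraspanin of leukocytes, 1.59-fold (adjusted p = 0.00754), and Irf8, a transcription factor of the macrophage lineage, 1.92-fold (adjusted p = 0.00803). Without WT 4, 7 of the 12 passed. The list of lymphocyte and blood genes, which includes haemoglobin genes, had 0 of 7 tested members past the threshold (median log2 difference -0.04). Only these 7 of its 16 genes passed the filter, so this count says little about lymphocytes.

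**Figure D2:**
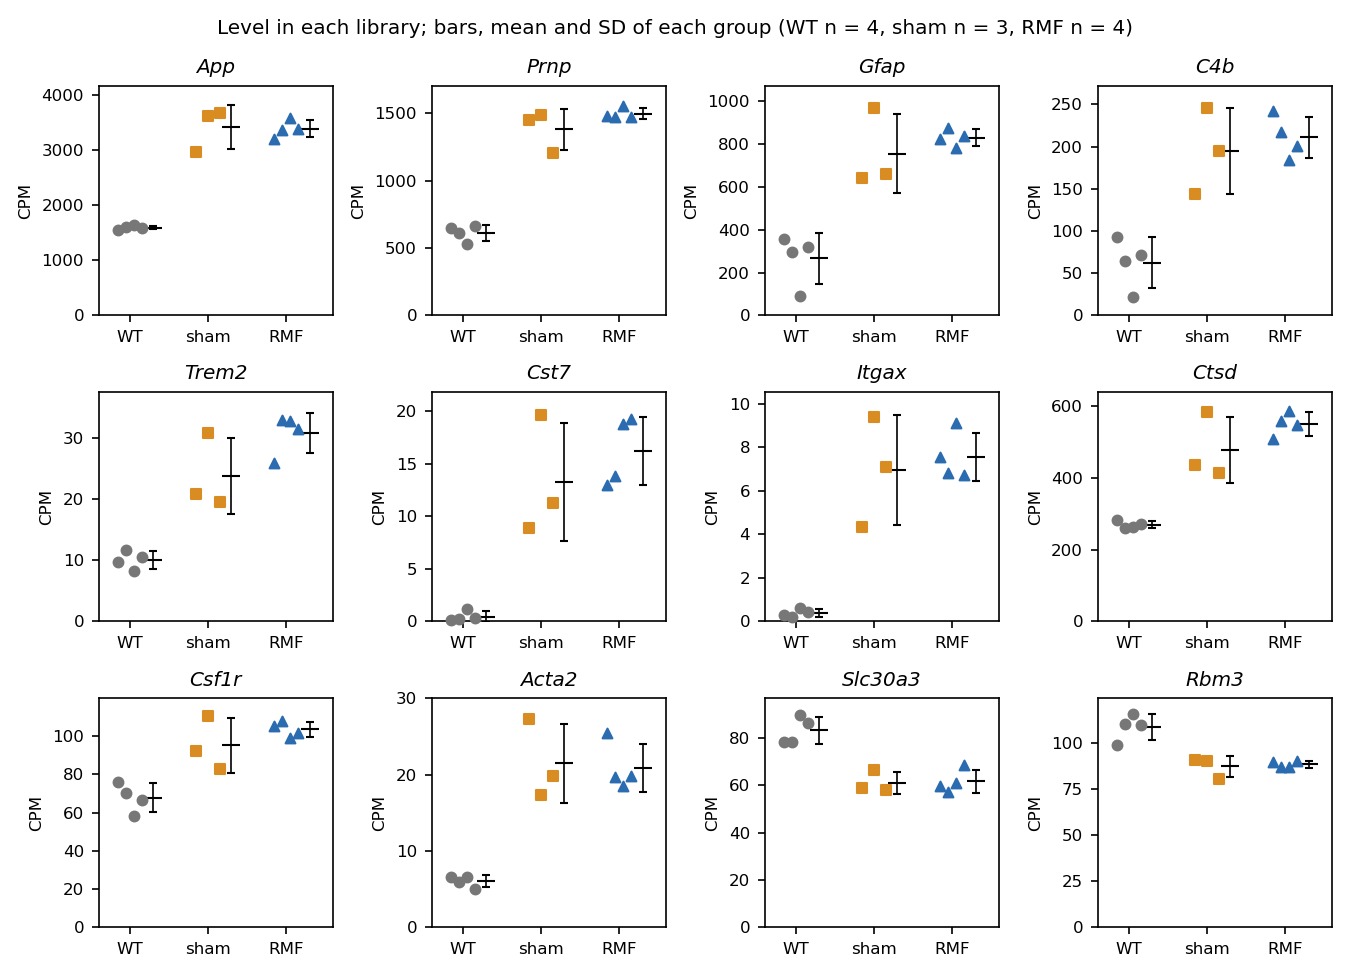
CPM in each library for 12 genes, 1 panel per gene with its own linear axis from 0, with WT, sham and RMF libraries as separate columns of points and bars for the mean and SD of each group. App, Prnp, Itgax and Trem2 show all 7 APP/PS1 libraries above all 4 WT libraries, WT 3 is the lowest point for Gfap (92.1 CPM) and C4b (21.3 CPM), and Slc30a3 and Rbm3 lie lower in APP/PS1.

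The complement cascade marks debris and synapses for uptake by microglia, and its genes rose at several steps. Of 13 tested members, 8 rose and 0 fell, with 12 above WT and a median log2 difference of 0.83. At the initiating step, C1qa, C1qb and C1qc, which encode the chains of C1q, rose 1.78-, 1.79- and 1.71-fold (adjusted p = 0.000514, 0.00428 and 0.0118). The C1qc call ended without WT 4 (adjusted p = 0.0548). C4b, the next component, held 93.3, 64.3, 21.3 and 71.7 CPM in WT 1 to WT 4 and between 144 and 245 CPM in APP/PS1. WT 3 lay far below the other WT libraries, and the fold of 3.25 (2.04 to 5.18, adjusted p = 0.0125) was 2.67 without it (adjusted p = 0.000446). C3, the component at which the pathways meet, held 3.27, 1.74, 2.06 and 2.47 CPM in WT and 10.1, 12.1 and 19.2 CPM as the lowest, median and highest APP/PS1 library. The 3 sham libraries were the highest of all, and the pooled rise was 5.54-fold (3.92 to 7.84, adjusted p = 7.8e-05). C3 is also made in liver, whose genes were higher in APP/PS1 libraries as given below, and the part of liver RNA in this rise was not tested. Receptors for cleaved C3 rose too: C3ar1, the C3a receptor, 3.48-fold (adjusted p = 0.000106), Itgb2, the shared integrin chain of complement receptors, 2.19-fold (adjusted p = 0.00197), and Itgam, which encodes CD11b, 1.42-fold (adjusted p = 0.026, and up to 0.0967 without a single library).

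Immune receptors that bind antibody or carry inhibitory signals rose in 4 of 8 tested cases, with a median log2 difference of 0.80 and all 8 above WT. The Fc gamma receptor genes Fcgr3, an activating receptor, and Fcgr2b, an inhibitory one, rose 1.86- and 2.33-fold (adjusted p = 0.000125 and 0.00186). Lilrb4a, an inhibitory immunoglobulin-like receptor, rose 2.65-fold (adjusted p = 0.00646), and Fcer1g, the signalling chain of Fc receptors, 1.76-fold (adjusted p = 0.0126, and 0.0626 without WT 2). Of 12 tested genes of Toll-like receptors, cytokines and NF-kB signalling, 4 rose, where 1.41% of all genes tested did. Tlr2, which senses bacterial lipopeptides, rose 2.6-fold from between 1.05 and 1.73 CPM (adjusted p = 0.00138), and Tlr7, which senses single-stranded RNA, 2.28-fold (adjusted p = 0.00136). Tgfbr1 and Tgfb1, a receptor and ligand of TGF-beta signalling, rose 1.46- and 1.59-fold (adjusted p = 0.0285 and 0.0393). The calls of this last pair ended without any of several single libraries (adjusted p up to 0.096 and 0.142), and 2 of the 12 passed without WT 2, WT 4, sham 3, RMF 1 or RMF 2.

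In MHC class I, which presents peptides to killer T cells, 3 of 6 tested members rose. H2-K1, a classical class I heavy chain, held 18.8, 21.1, 24.2 and 23.1 CPM in WT and between 30.7 and 37.0 CPM in APP/PS1, a 1.55-fold rise without overlap (1.36 to 1.78, adjusted p = 0.00153). B2m, the light chain, and H2-D1 rose 1.42- and 1.5-fold (adjusted p = 0.0209 and 0.0332), with WT 3 above the lowest APP/PS1 library in both. Both calls ended without WT 1, WT 2 or WT 4 (adjusted p up to 0.107 and 0.142), which left 1 of 6. H2 genes have near-identical copies and reads may be split between them. In MHC class II, 0 of 5 passed (median log2 difference 0.68) and 2 passed without WT 3, whose score was 0.31 where the other WT libraries had -0.74 to -0.54. Among 11 interferon-induced genes, 1 rose, and 0 passed when 1 of WT 1 to WT 3, sham 3, sham 4 or RMF 1 to RMF 4 was left out.

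Lysosomal genes rose in 12 of 27 tested cases and fell in 0, with 25 of 27 above WT and a median log2 difference of 0.39. Ctsd, the aspartic protease cathepsin D, held 283, 260.9, 262 and 270.1 CPM in WT and 414, 547 and 587 CPM as the lowest, median and highest APP/PS1 library. All APP/PS1 libraries were above all WT libraries, and the rise was 1.93-fold (1.65 to 2.25, adjusted p = 0.000217). The cysteine proteases Ctss and Ctsz rose 1.78- and 1.75-fold (adjusted p = 0.00108 and 0.00239), Grn, the progranulin gene, 1.44-fold (adjusted p = 0.000253), and Hexa, a lysosomal hexosaminidase, 1.41-fold (adjusted p = 0.00456). Lyz2, the lysozyme of macrophages, rose 3.70-fold (2.48 to 5.50, adjusted p = 0.00172), from between 7.62 and 19.0 CPM to between 29.4 and 59.7 CPM. Autophagy genes had 0 of 16 past the threshold and a median log2 difference of -0.06. With 1.54% of all tested genes past it, this count does not set them apart from other genes. The microglial, complement, receptor, antigen presentation, interferon and lysosome lists together held 121 tested genes, of which 50 rose, 0 fell and the median log2 difference was 0.51. Over all genes tested, 1.41% were called higher and the median was -0.00.

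**Figure D3:**
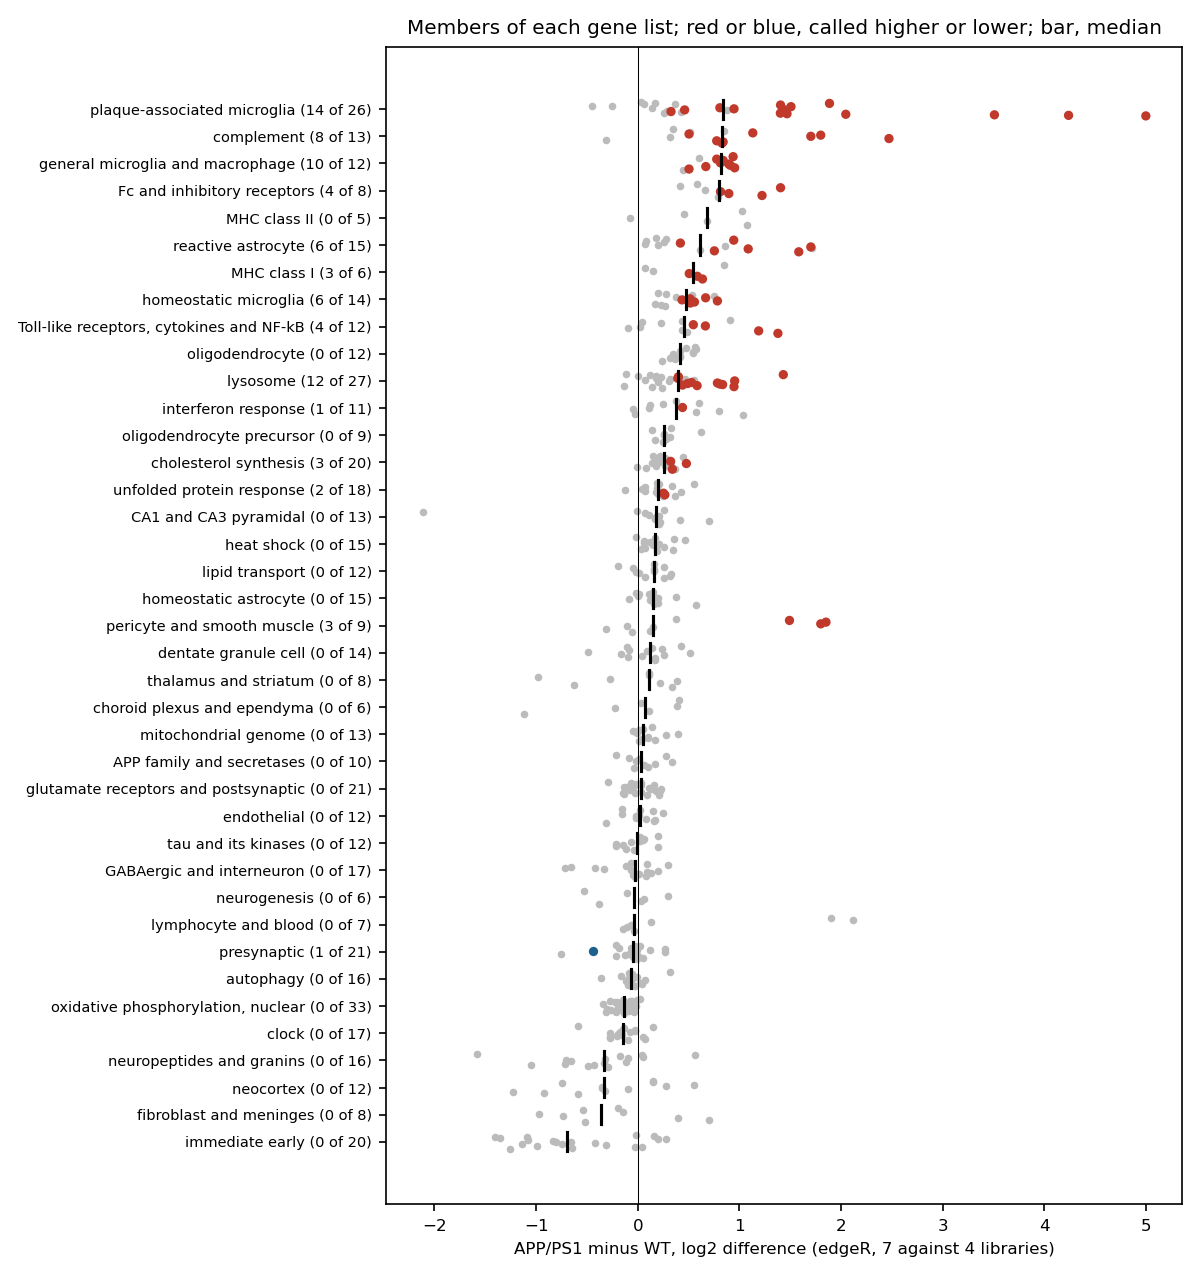
Log2 difference of APP/PS1 from WT (horizontal axis) of each tested member of the gene lists of brain cell types and pathways (rows, without the transgene-related and organ lists), with called members in red (higher) or blue (lower), a bar at the median and the number called of those tested beside each name. The medians of plaque-associated microglia, complement and general microglia lie farthest to the right (0.84, 0.83 and 0.82), and that of immediate early genes farthest to the left (-0.70) with 0 calls.

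Astrocyte genes tied to reactivity rose in 6 of 15 tested cases, with 15 of 15 above WT and a median log2 difference of 0.61 (0.47 without WT 3). Gfap, the main filament gene of astrocytes (chromosome 11, 102778162 to 102791738), held 357, 298, 92.1 and 319 CPM in WT 1 to WT 4, and 640.2, 823 and 968 CPM as the lowest, median and highest APP/PS1 library. WT 3 lay well under the other WT libraries, and no WT library reached the APP/PS1 range. The rise was 3.00-fold (1.94 to 4.64, adjusted p = 0.0133), and 2.46-fold without WT 3 (adjusted p = 0.000108). Vim, another filament gene, rose 1.69-fold (1.45 to 1.97, adjusted p = 0.00136), Osmr, which encodes 1 chain of the receptor for oncostatin M, 2.12-fold (adjusted p = 0.00241), and Stat3, the transcription factor that acts downstream of such receptors, 1.34-fold (adjusted p = 0.00952). Ggta1, a sugar-transferring enzyme gene, rose 1.92-fold (adjusted p = 0.0189, and 0.0759 without WT 1). The homeostatic astrocyte list had 0 of 15 members past the threshold, and its summed level overlapped between genotypes, at 4735 to 5508 CPM in WT and 5454 to 6122 CPM in APP/PS1. The summed level of the reactive list was 264 to 682 CPM in WT and 1082 to 1534 CPM in APP/PS1.

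Other glia gave no calls. All 12 oligodendrocyte genes and all 9 of the oligodendrocyte precursor list lay above WT, with 0 past the threshold and medians of 0.42 and 0.26 on the log2 scale. The oligodendrocyte median was 0.22 without WT 3, and the summed level overlapped, at 2648 to 8748 CPM in WT and 4258 to 10430.0 CPM in APP/PS1. In cholesterol synthesis, which oligodendrocytes and astrocytes carry out for the adult brain, 3 of 20 genes rose and 19 lay above WT. Sqle, squalene epoxidase, held 44.7, 48.8, 48.3 and 46.9 CPM in WT and between 54.1 and 74.0 CPM in APP/PS1, a 1.39-fold rise (1.24 to 1.56, adjusted p = 0.00484). Hmgcs1 and Msmo1, enzymes of an early and a late step, rose by 0.34 and 0.32 on the log2 scale (adjusted p = 0.0142 and 0.0181), and these calls ended without WT 2 or WT 4 (adjusted p up to 0.0744 and 0.0973). The list gave 7 calls without WT 3. Lipid transport genes gave 0 of 12. In the unfolded protein response, the endoplasmic reticulum chaperone genes Calr and Pdia3 rose 1.20- and 1.19-fold (adjusted p = 0.018 and 0.026), 2 of 18 tested, and neither passed without WT 2 or without WT 4 (adjusted p up to 0.0966 and 0.107). Heat shock genes gave 0 of 15 (median 0.16).

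Few genes on the neuronal lists passed this test, and a lack of calls does not show that levels were alike. Slc30a3, which encodes the zinc transporter ZnT3 that loads zinc into glutamatergic synaptic vesicles of mossy fibres and cortical terminals (chromosome 5, 31243450 to 31265581), was the 1 of 21 presynaptic genes that fell. It held 78.4, 78.3, 89.7 and 86.3 CPM in WT and 57.3, 59.8 and 68.7 CPM as the lowest, median and highest APP/PS1 library. The groups did not overlap, and the level was 0.738 of WT (0.667 to 0.817, adjusted p = 0.00356). Postsynaptic glutamate genes gave 0 of 21, GABAergic genes 0 of 17, neuropeptides 0 of 16, tau and its kinases 0 of 12, and clock genes 0 of 17, with medians between -0.33 and 0.03 on the log2 scale. The neuropeptide median of -0.33 was -0.05 without WT 3. Immediate early genes had the lowest median of these lists, -0.70 with 0 of 20 past the threshold, but the median was -0.01 without WT 3, whose score of 1.34 lay above the other WT libraries (-0.43 to 0.12). Nuclear genes of oxidative phosphorylation lay below WT in 32 of 33 cases with a median of -0.14 and 0 calls, and their median was -0.32 in sham and -0.03 in RMF. Sham 4, which had the highest mitochondrial share of counts (9.53%), had a score of -0.47, sham 3 and sham 1 had -0.11 and -0.09, and the pooled median was -0.09 without it and -0.04 without WT 3 as well. Markers of dentate granule cells (0 of 14), CA1 and CA3 pyramidal cells (0 of 13) and neocortex (0 of 12) gave no calls. Their medians of 0.12, 0.18 and -0.33 were -0.16, -0.03 and 0.12 without WT 3.

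The 4 other abundant genes that fell, with at least 10 CPM in both genotypes, are the cold-induced RNA-binding protein gene Rbm3, the X-linked genes Bex2 and Tceal6 of related small-protein families, and the Polycomb subunit gene Cbx7. Rbm3 held 98.6, 110.0, 115 and 109.8 CPM in WT and 80.4, 89.6 and 91.0 CPM as the lowest, median and highest APP/PS1 library. It did not overlap and stood at 0.810 of WT (0.744 to 0.882, adjusted p = 0.0142). Tceal6, Bex2 and Cbx7 stood at 0.782, 0.797 and 0.840 of WT (adjusted p = 0.0197, 0.0246 and 0.0236), also without overlap. Each of the 4 calls ended without at least 1 single library (adjusted p up to 0.0626, 0.0717, 0.0877 and 0.0976 for Rbm3, Tceal6, Bex2 and Cbx7). Across genes, log2 differences rose with transcript length (Spearman 0.183 over 14428 genes, which are not independent), and with that trend removed Tceal6 and Bex2 no longer passed (adjusted p = 0.0571 and 0.0685).

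Vessel genes were mixed. Of the 9 tested pericyte and smooth muscle genes of the vessel wall, 3 passed the threshold and rose, the smooth muscle genes Acta2, Myh11 and Tagln. On this list 6 genes lay above WT and the median log2 difference was 0.15. The list also holds the smooth muscle genes Cnn1, Mylk and Des, none of which was called. The other 6, among them the pericyte genes Pdgfrb, Rgs5 and Kcnj8 (0.965-, 1.09- and 0.806-fold, named after their values were seen), did not pass. Acta2, smooth muscle actin, held 6.62, 5.94, 6.62 and 5.06 CPM in WT and 17.4, 19.7 and 27.2 CPM as the lowest, median and highest APP/PS1 library, a 3.48-fold rise (2.79 to 4.34, adjusted p = 2.96e-05). Myh11 and Tagln, a myosin heavy chain and an actin-binding protein of smooth muscle, rose 2.81- and 3.61-fold (adjusted p = 9.58e-05 and 9.96e-05). Endothelial genes gave 0 of 12 (median log2 difference 0.02), fibroblast genes 0 of 8 (-0.36) and choroid plexus genes 0 of 6 (0.07). Smooth muscle is also part of the wall of the large intestine, airways and other organs whose genes were higher in the same libraries, and the part of such RNA in these rises was not tested. Of other abundant genes on none of these lists, Sgk1, a stress-induced kinase gene, rose 2.06-fold (1.64 to 2.6, adjusted p = 0.00239). The immunoglobulin gene Igha rose 2.59-fold with overlap and the secreted glycoprotein gene Lgals3bp 1.99-fold (adjusted p = 0.0323 and 0.0246), and both calls ended without any of several single libraries (adjusted p up to 0.128 and 0.105).

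Genes that define other organs separated the genotypes. On the lists of liver, large intestine, kidney, lung airway and skeletal muscle genes, 51 were tested, a gene on several lists counted once, of which 33 were higher in APP/PS1 and 10 lower. The filter kept 22 of 24 listed liver genes, 11 of 20 of large intestine, 2 of 16 of kidney, 3 of 11 of lung airway and 14 of 25 of skeletal muscle. Among these 20, 9, 2 and 3 were called higher and 10 muscle genes lower, but genes near 0 in 1 genotype passed the filter only through the other, so for such genes the direction was fixed by the filter and the counts are a description only. Sums are given without 4 genes that the brain also expresses, left out after values were seen (Ttr and Trf for liver, Car4 for large intestine, Pvalb for skeletal muscle). The summed level of 20 liver genes was 7.91, 2.24, 22.7 and 17.9 CPM in WT 1 to WT 4, 414, 267 and 253 CPM in sham 1, 3 and 4, and 226, 127, 134 and 122 CPM in RMF 1 to RMF 4. In this sum every APP/PS1 library was above every WT library, and the 3 sham libraries were the highest. With Ttr and Trf included, the sums were 545, 254, 148 and 274 CPM in WT and 391 to 835 CPM in APP/PS1, the groups overlapped, and RMF 1 was the highest. Large intestine genes summed to 4.23 to 9.04 CPM in WT and 20.6 to 48.4 CPM in APP/PS1, and with Car4 to 38.0 to 48.7 against 54.3 to 86.5 CPM. Kidney genes summed to 0.784 to 1.85 against 13.8 to 30.9 CPM and lung airway genes to 0.259 to 1.16 against 9.26 to 20.8 CPM. The kidney sum holds only Kap and Cyp2e1, and Cyp2e1 is also in the liver sum. All sums hold only genes that passed the filter, so the limit given for the counts applies to them too. Skeletal muscle genes ran the other way, at 135 to 157 CPM in WT and 70.3 to 91.5 CPM in APP/PS1, and with Pvalb at 151 to 197 against 87.0 to 108 CPM. The muscle sum without Pvalb holds 13 genes, of which 10 were called lower. No called muscle gene exceeded 3.645 CPM (Acta1) in an APP/PS1 library. Most of the APP/PS1 sum therefore came from members that were not called, and the sum understates the fall of the called genes.

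Single genes showed the same separation. Lypd8, an intestinal gene, had 0 counts in the 4 WT libraries and 6.33 to 12.3 CPM in APP/PS1, at least 914-fold higher against a floor of 3 counts over the WT group. Scgb1a1, which club cells of the airway secrete, and Dmbt1, a mucosal scavenger gene, also had 0 WT counts and were at least 428- and 694-fold higher. The same held for Car1, Agr2, Mptx1 and Sval1 of the intestine, at least 275-, 151-, 93.6- and 58.7-fold higher, and for the liver pheromone carriers Mup22 and Mup11, at least 259.7- and 185-fold higher. The Car1 call ended without any of several single libraries (adjusted p up to 0.0785). Serpina3k, a liver protease inhibitor, rose 41.8-fold (23.3 to 74.9, adjusted p = 1.22e-05), and Apoa1, the main protein of high-density lipoprotein, 25.5-fold (11.5 to 56.3, adjusted p = 0.000309). Hp, haptoglobin, rose 10.03-fold (adjusted p = 8.25e-05) and Sftpc, a lung surfactant protein, 10.5-fold (adjusted p = 8.25e-05). Kap, Krt19, Zg16 and Sprr2a1 of kidney and epithelia had 4, 4, 5 and 12 WT counts and passed, as did Mup20 and Mup3 (12 and 38 WT counts), Serpina1a (33.8-fold), Cyp2e1 (8.16-fold), Cyp2f2 (12.5-fold, adjusted p = 0.0458, and up to 0.11 without a single library) and, with overlap, Lgals4 (2.56-fold, adjusted p = 0.0143, and up to 0.0711 without a single library). In the other direction, Atp2a1, the calcium pump of fast muscle fibres, held 8.91, 12.5, 13.3 and 10.5 CPM in WT and 0.202 to 0.537 CPM in APP/PS1, which is 0.0270 of WT (adjusted p = 4.16e-07). Ckm, muscle creatine kinase, stood at 0.0242 of WT and Tnnt3, a fast troponin, at 0.0126 (adjusted p = 3.77e-05 and 6e-05). The other muscle genes that fell were Tnnc2, Myh4, Tnni2, Mylpf, Actn3, Myl1 and Acta1, at 0.0173 to 0.272 of WT (Mylpf adjusted p = 0.0231, and up to 0.0839 without a single library), and Gm6749, on none of the lists, stood at 0.175. The labels name no such tissue, and the part of such RNA in other results was not tested. Macrophages and complement genes also belong to such organs. Mup and Serpina1 genes were counted among the liver genes and have near-identical copies.

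**Figure D4:**
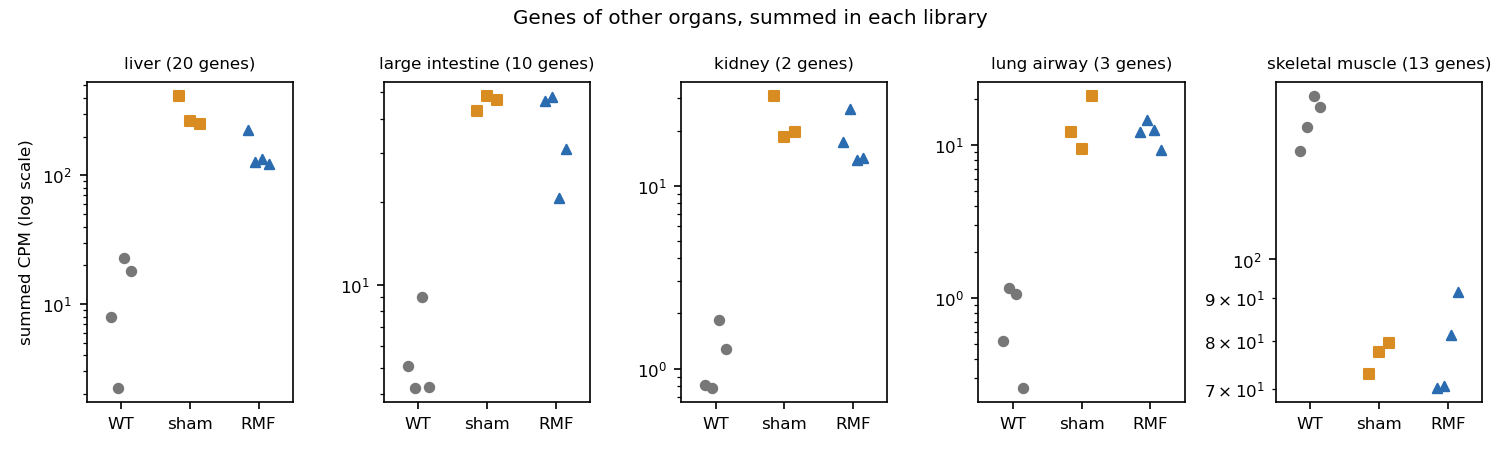
Summed CPM (log axis) of liver, large intestine, kidney, lung airway and skeletal muscle genes, without Ttr, Trf, Car4 and Pvalb, in each of the 11 libraries, 1 panel per organ, with WT, sham and RMF as separate columns. Liver sums are 2.24 to 22.7 CPM in WT and 122 to 414 CPM in APP/PS1, and skeletal muscle sums are 135 to 157 CPM in WT and 70.3 to 91.5 CPM in APP/PS1. Most of the APP/PS1 muscle sum came from genes that were not called.

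The plaque-associated microglia score lay between -0.75 and -0.50 in WT and between 0.13 and 0.54 in APP/PS1. The summed level of the same list overlapped between genotypes, at 3535 to 4226 CPM in WT and 4191 to 5285 CPM in APP/PS1. Among genes on none of the lists, 105 of 13859 were higher and 7 lower. Of those with at least 10 CPM in both genotypes, 26 of 9664 were higher and 4 lower. Over all genes tested, 1.41% were called higher and 0.125% lower, with no such cut on CPM.

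The pooled group joins 2 arms, which were also set against the same 4 WT libraries separately. Sham against WT gave 134 calls (0.929%), with 122 higher (0.846%) and 12 lower (0.0832%). RMF against WT gave 172 (1.19%), with 160 higher (1.11%) and 12 lower (0.0832%). At an unadjusted p under 0.05 the counts were 1907 (13.2%) and 1212 (8.4%). These comparisons share the WT libraries, so their values are given side by side only. App stood at 2.15-fold of WT in sham and 2.13-fold in RMF (adjusted p = 0.000116 and 7.02e-05), and Prnp at 2.25- and 2.44-fold (adjusted p = 0.000127 and 4.47e-05). Itgax stood at 18- and 19.5-fold, and Slc30a3 at 0.734 and 0.741 of WT (adjusted p = 0.0336 and 0.0208). Gfap was 2.84-fold in sham (adjusted p = 0.0821) and 3.12-fold in RMF (adjusted p = 0.0349), C4b passed in RMF (adjusted p = 0.0342) and not in sham (adjusted p = 0.0744), and so did Csf1r (adjusted p = 0.0102 and 0.0692). Some genes passed in the pooled comparison and in neither arm alone, among them Siglech, Gpr34, Itgam, Tgfb1, Tgfbr1, Msmo1, Pdia3, Rbm3, Bex2, Tceal6 and Cbx7. For Rbm3 the adjusted p was 0.0779 in sham and 0.064 in RMF.

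Between the arms themselves 0 of 14428 genes passed by edgeR (0%), with 994 at an unadjusted p under 0.05 (6.89%) and 16 calls by DESeq2. The smallest adjusted p was 0.719. Of the 222 genes called in the pooled comparison, 12 (5.41%) had an unadjusted p under 0.05 between arms, and 105 of the 204 higher genes lay lower in RMF than in sham. For App the RMF level was 0.991 of sham (95% interval 0.867 to 1.13), and for Trem2 it was 1.3-fold (0.998 to 1.69, unadjusted p = 0.0515). The called genes with the smallest unadjusted p between arms were Cyp2e1, a liver and kidney cytochrome, at 0.458 of sham (0.272 to 0.771), Cd52, a surface glycoprotein of leukocytes, at 1.95-fold (1.24 to 3.07), Ctsl, the protease cathepsin L, at 1.19-fold (1.05 to 1.34), Apoa1 at 0.459 (0.26 to 0.812) and C3 at 0.678 (0.504 to 0.912). For each of these the adjusted p was 0.719. A p that misses the threshold does not show that the arms were alike, and the intervals of Cd52, Cyp2e1 and Apoa1 each reach past a 2-fold difference. Cd52 and Ctsl passed in the pooled comparison at 3.13- and 1.36-fold (adjusted p = 0.0318 and 0.0223), and both calls ended without any of several single libraries (adjusted p up to 0.128 and 0.0932).

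**Figure D5:**
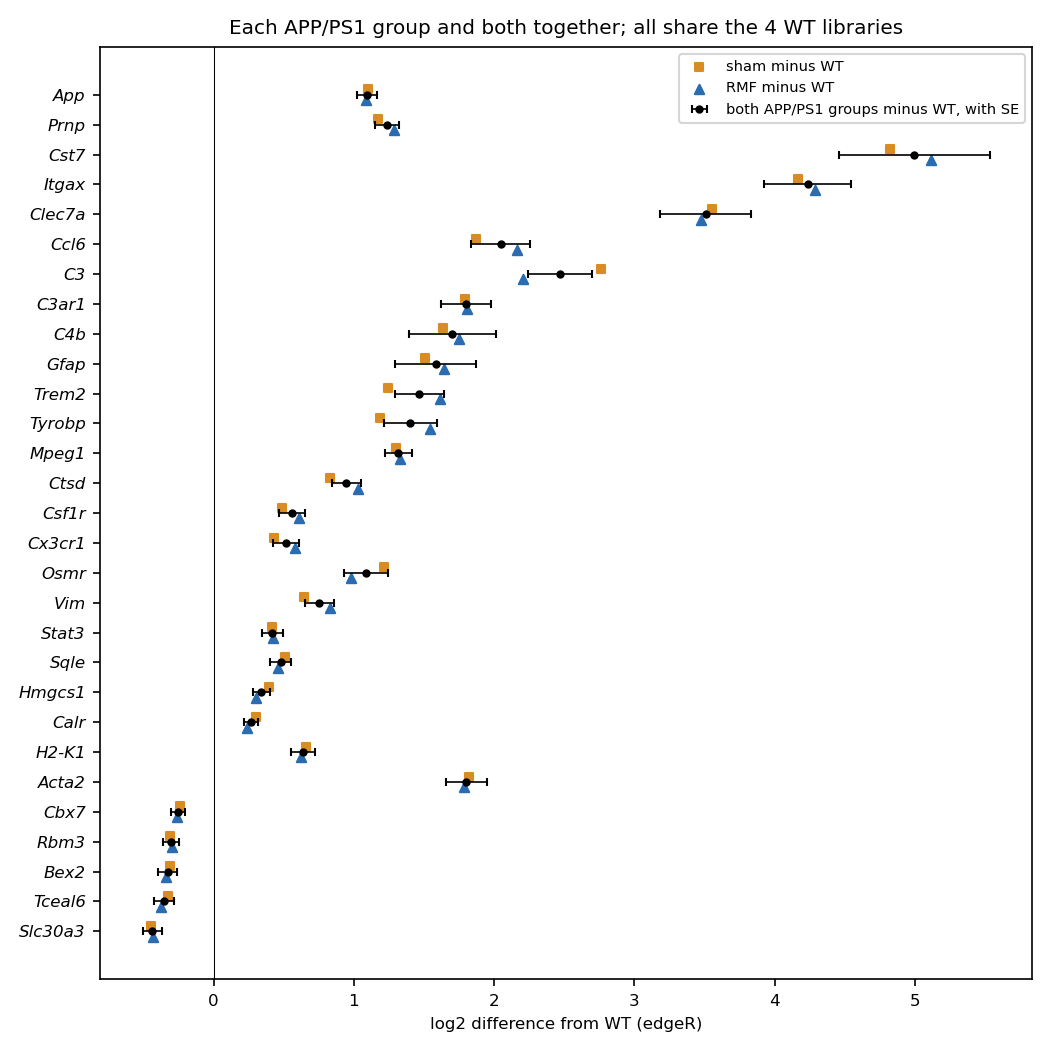
Log2 difference from WT (horizontal axis) for 29 called genes (rows), in sham (squares), in RMF (triangles) and in both together (circles, bars are SE), all against the same 4 WT libraries. App stands at 2.15- and 2.13-fold of WT in sham and RMF, C3 at 6.79- and 4.61-fold, and 0 genes passed the test between the arms.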

How the data were processed

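RNA of hippocampal tissue was sequenced in 11 libraries. Per the labels' protocols, libraries were made with oligo(dT) beads from 5 µg of total RNA, read as pairs of 150 bp and trimmed with Cutadapt 1.9. HISAT2 2.0.4, StringTie 1.3.4d and edgeR are named in the submitters' processing notes, which also name a human genome build. The mouse build, the counting tool and strand setting were not given in the sources used here, so overlapping and antisense genes and near-identical copies (Mup, Serpina1, H2) are uncertain. The authors deposited raw counts per gene, with FPKM beside them. The deposited FPKM were rescaled counts: their ratio to the counts, relative to each library's scale, varied by under 1% for 99.963% of 13669 genes. The 2 columns of values that match no sample were not used.

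Genes reaching FPKM 1 in 3 or more libraries (14428 of 36826) were fitted with edgeR 4.0.16 in R 4.3.3 (TMM, quasi-likelihood F-test), with pooled APP/PS1 against WT as 2 groups and no covariate, and with 3 groups for the arms. The threshold was an adjusted p of 0.05. SE and 95% intervals came from the F statistic and its degrees of freedom, and intervals cover the spread between libraries only. Folds against 0 counts used a floor of 3 counts over the group, and floors cover counting error only. The steps were tested on simulated data. Replicate libraries differed pairwise beyond sampling noise (chi-square over its degrees of freedom 18.7 to 304), so each counted as 1.

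Genes on a list were described by counts and median, with no set test. The members, gene lists and tests were chosen with earlier results of these data known. The text names the 10 genes with the smallest p and the 10 with the largest difference in each direction, up to 10 abundant genes (at least 10 CPM in both genotypes) in each direction, up to 8 called genes per list, App, Prnp, Lamr1-ps1 and Gfap, and the 5 called genes that differed most between arms. A few genes that the rule selects are not reported here. Alternatives were DESeq2 1.42.0, limma 3.58.1 on log2 FPKM with pseudocounts of 0.1 and 1 and on weighted counts, other normalizations, filters and thresholds, a replicate block, and leaving out each library. Promoters came from RefSeq, where 170 of the 222 called genes matched.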

Additional observations from a re-analysis of the deposited data

Results flagged for a closer look

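In groups of 4 or 7 libraries, 1 library stood far from the rest for 17 of 125 combinations of measure and group, over 42 measures. For independent values with a normal spread, chance gives such a gap in about 1 in 20 groups. Here RMF libraries were counted again among APP/PS1 libraries, and 1 nonzero value among zeros always gives a full gap. The 17 cases are therefore a description only.

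Among transgene-related genes, Prnp was highest among RMF libraries in RMF 3, at 1554 CPM against 1481 in the next library, and lowest among the 7 APP/PS1 libraries in sham 4, at 1208 CPM against 1447 in the next. Sham 4 also held the lowest level of Rbm3 in APP/PS1, 80.4 CPM against 86.8, and the highest mitochondrial share of counts, 9.53% against 6.55%.

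Among immune genes, Lyz2 was lowest among RMF libraries in RMF 1, at 38.3 CPM against 58.3. Within WT, WT 4 was highest for the immunoglobulin gene Igha (22.4 CPM against 14.1) and for the secreted glycoprotein gene Lgals3bp (17.9 CPM against 9.83).

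Genes of other organs gave the remaining cases. Kap, a kidney gene, was present among WT libraries in WT 4 alone, at 0.0575 CPM, and was highest in RMF 2, at 20.01 CPM, both among RMF libraries (9.46 in the next) and among all 7 APP/PS1 libraries (10.8 in the next). Krt19, an epithelial keratin, was present in WT 3 alone among WT libraries, at 0.0570 CPM. The liver genes Serpina3k and Cyp2e1 were highest in sham 1, at 19.5 and 20.1 CPM against 12.8 and 11.3, and the liver sum was highest among RMF libraries in RMF 1, at 226 CPM against 134. Muscle genes stood apart in 3 cases: Myl1 was highest among RMF libraries in RMF 3 (0.748 CPM against 0.462), Tnnc2 among APP/PS1 libraries in RMF 1 (0.161 CPM against 0.0424), and Myh4 was lowest among WT libraries in WT 1 (9.89 CPM against 17.9).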

How the results depend on the processing

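The 222 calls of the pooled comparison (204 higher, 18 lower) were 387 by DESeq2 (67 lower, 320 higher), 340 with voom weights (50 lower), 447 with no filter (421 higher), 507 at FPKM of at least 0.1 (475 higher, 32 lower), 73 at FPKM of at least 5 (68 and 5), 135 at an adjusted p of 0.01 (124 and 11), and 295 at 0.1 (34 lower). Without the organ genes 8 genes were lower. Sham against WT gave 345 by DESeq2 (251 and 94) and 304 with no filter (290 higher), and RMF against WT 315 (270 and 45) and 354 (340 higher). RMF against sham gave 16 by DESeq2 (12 and 4). Leaving out 1 library gave 164 to 227 pooled calls (149 to 211 higher, 13 to 26 lower), 89 to 153 for sham (82 to 139, 7 to 15), 121 to 203 for RMF (111 to 190, 9 to 15) and 0 to 1 between arms (0 to 1 higher, 0 lower).

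Replicate numbers did not pair libraries (correlations of deviations from -0.337 to 0.272). With a replicate block, the counts were 167 pooled, 87 for sham (79 higher) and 112 for RMF (103 higher).

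The cause was not tested for any of the moves above, apart from the thresholds and filters, which change the genes tested or called by construction. Folds moved by over 1.5 times without 1 library for Car1 (904.5 without RMF 2), Cyp2f2 (24.2) and Krt19 (2183) without WT 3, Kap (5768) and Sprr2a1 (290.5) without WT 4, Mup20 (3745), Mup3 (96.2) and Zg16 (1669) without WT 1, and Tnnc2 (0.00508 without RMF 1). WT counts are few for these genes, except Tnnc2, whose APP/PS1 counts are few.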

Other observations

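Called genes on none of the lists, chosen here after their values were seen, included the following, each a single gene and no test of a group. Csf3r, the receptor for granulocyte colony-stimulating factor, lay between 8.88 and 9.37 CPM in WT and between 16.5 and 22.6 CPM in APP/PS1, a 2.15-fold rise (1.85 to 2.5, adjusted p = 6e-05). Vsir, an immune checkpoint gene, rose 1.79-fold (adjusted p = 0.00042), and Cd84, an adhesion receptor of leukocytes, 2.54-fold (adjusted p = 0.000894). Plek, which encodes pleckstrin, rose 1.88-fold, Lcp1, an actin bundler, 1.64-fold, and Nckap1l, a subunit of the actin-regulating WAVE complex, 1.59-fold (adjusted p = 0.00114, 0.00114 and 0.000511). The phosphatase genes Ptpn6 and Inpp5d rose 2.16-fold (adjusted p = 0.000717) and 1.46-fold (adjusted p = 0.0194).

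Cybb, the catalytic subunit of the phagocyte NADPH oxidase, which makes superoxide, lay between 0.973 and 1.84 CPM in WT and between 2.45 and 9.52 CPM in APP/PS1, a 4.33-fold rise (2.42 to 7.78, adjusted p = 0.0133). Ncf1, another subunit, rose 1.68-fold (adjusted p = 0.0397), and Cyba, whose product pairs with that of Cybb in the membrane, 2.00-fold with an overlap of the groups (adjusted p = 0.0473). Nfe2l2, the transcription factor of the antioxidant response, rose 1.47-fold (adjusted p = 0.0269), and Plin2, a coat protein of lipid droplets, 1.86-fold (adjusted p = 0.00204).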
